A study of Mus musculus with 2 samples.

Results

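Cytochrome P450 genes are described here in mammary gland RNA, as the rows whose symbol is Cyp followed by a digit, with Cyp51 left out. This gave 102 of 21113 rows, in 16 families and 39 subfamilies, of which 9 carry a pseudogene ending (-ps) in their symbol. The ending is not a count of pseudogenes, since RefSeq gives 5 of the 102 rows as pseudogenes and 97 as protein coding. The series holds 1 library of genotype Mir212/132ILN/ILN, in which an IRES-LacZ-Neo (ILN) cassette was put into the locus that encodes miR-212 and miR-132, and 1 wild-type library. Strain (C57BL/6), age (postnatal week 6), tissue and protocol were the same for both, and the labels do not say how many animals gave each sample. The 2 microRNAs were not analysed here, and nothing in the values below checks which genotype a library had. Because each genotype had 1 library, no difference below has a replicate check and no test was made.

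P450 enzymes are haem proteins that insert an oxygen atom into lipids, steroids, vitamins and foreign compounds. Most sit in the endoplasmic reticulum and take electrons from the reductase Por, while a small mitochondrial set takes them from Fdxr and the ferredoxin Fdx1. Families Cyp1 to Cyp4 hold most of the enzymes for foreign compounds and fatty acids, and the higher-numbered families act mainly on sterols, steroid hormones, retinoic acid and vitamin D. Liver is the organ known for the highest P450 levels, and adipose tissue, the main tissue of the young mammary fat pad, holds a smaller set.

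The unit behind every value is the fragment, the whole number of sequenced pieces assigned to a gene, of which the ILN/ILN library held 42953129 and the wild-type library 46133338. Levels are the authors' FPKM-like values, scaled for library size and for a deposited length per gene. That length can be far shorter than the transcript, as described below with the shared sequences. A log2 ratio is taken between the values plus 1, ILN/ILN over wild type, which understates the difference of low genes. Ratios with an interval are ratios of fragments per library total, and the interval is the exact 95% interval for counting error alone, which does not cover differences between animals or dissections. Markers of several cell types were lower in the ILN/ILN library. All 11 luminal epithelial markers were lower, with a summed value of 8.32 in ILN/ILN and 55.6 in wild type. The luminal markers Krt8, Elf5 and Cldn7 had 0 fragments in ILN/ILN and between 45 and 742 in wild type. The other luminal markers kept fragments in ILN/ILN, from 1 for Cldn4 to 181 for Spint2. Of 8 basal epithelial markers 7 were lower and 1 was higher, with a summed value of 59.7 in ILN/ILN and 77.9 in wild type. Acta2 made up most of this sum, at 43.4 in ILN/ILN and 56.5 in wild type, so the sum says little about the keratins. Krt5, Krt14 and Krt17 had 0 fragments in ILN/ILN and between 59 and 78 in wild type, while Trp63 had 109 in ILN/ILN and 147 in wild type (0.796; 0.616 to 1.03). All rows of the B cell (8), T cell (8), neutrophil (6), macrophage (9) and lymph node (6) lists were lower too. White adipocyte markers differed less, with 5 of 8 higher and 3 lower and none past 2-fold. Of 7 endothelial markers 6 were higher, with a summed value of 161 in ILN/ILN and 133 in wild type. Of 7 keratinocyte and sebaceous markers 4 were lower and 3 higher, with a summed value of 27.3 in ILN/ILN and 56.2 in wild type. The 3 keratinocyte and sebaceous markers that reached a value of 1 in ILN/ILN or wild type were all lower, and the 3 higher ones did not reach it.

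The microRNAs of this locus share the seed, bases 2 to 8 of the mature strand, through which a microRNA pairs with messenger RNAs. The RefSeq sequences (GRCm38.p6, plus strand, at chr11:75173443-75173464 for miR-212-3p and chr11:75173723-75173744 for miR-132-3p) are shown with the seed in capitals.
mmu-miR-212-3p: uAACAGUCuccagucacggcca
mmu-miR-132-3p: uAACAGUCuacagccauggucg
The matching letters GACTGTT were searched in the longest 3′ untranslated region that GENCODE gives a gene. They occurred in 6 of 91 P450 genes (6.59%), against 2273 of 19599 genes of the whole table (11.6%). Among genes that reached a value of 1 in ILN/ILN or wild type, the letters occurred in 2 of 17 P450 genes (11.8%), against 1494 of 11326 genes (13.2%). The 5 P450 genes that hold them and are described with values below are shown with 11 bases on each side, from GENCODE transcripts, the match in capitals. In Cyp2e1 the match starts at base 33 of 245 in the untranslated region, in Cyp3a13 at base 933 of 1337, in Cyp4f17 at base 899 of 1249, in Cyp46a1 at base 437 of 695 and in Cyp8b1 at base 362 of 406.
Cyp2e1: ccttacaaaatGACTGTTtaaaaaaatgc
Cyp3a13: ctgccttccatGACTGTTttgcctccttc
Cyp4f17: ttaacttttctGACTGTTctaggatttga
Cyp46a1: tgtctcttgcaGACTGTTtggccagggct
Cyp8b1: gccatgtgtgcGACTGTTaatttcccact
A match is a description of letters, and whether the microRNAs act there was not tested.

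Most P450 rows had no or few fragments in this gland. In both libraries 59 of the 102 rows had 0 fragments, which allows up to 0.0698 fragments per 1000000 in ILN/ILN and 0.0650 in wild type, with 3 fragments as the limit of a count of 0. Of the other 43 rows, 17 reached a value of 1 in ILN/ILN or wild type and are called measured, 5 more had at least 50 fragments in either library, and 21 had fewer, with values of at most 0.429 in ILN/ILN and 0.790 in wild type. The rows at 0 lay mostly in the large mouse clusters of liver and kidney enzymes. All 8 Cyp4a rows (fatty acid omega-hydroxylases), 15 of 16 Cyp2c rows, 7 of 10 Cyp2d rows, 7 of 9 Cyp3a rows and 4 of 5 Cyp2b rows had 0 fragments in both libraries. So did Cyp7a1, the rate-limiting enzyme of bile acid synthesis from cholesterol, Cyp1a2 of the liver, the aldosterone and corticosterone enzymes Cyp11b1 and Cyp11b2, the vitamin D inactivating enzyme Cyp24a1, and Cyp19a1, the aromatase that makes oestrogens. Members named here although they had under 50 fragments were chosen after their values were seen.

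Cyp2e1, the enzyme that oxidises ethanol and other small molecules, stood far above every other P450 gene. Its value was 2332 in ILN/ILN and 2401 in wild type, from 175152 fragments in ILN/ILN and 193723 in wild type, which placed it at rank 26 of 21113 genes in ILN/ILN and rank 32 in wild type. It held 88.2% of all P450 fragments in ILN/ILN and 88.3% in wild type, and its level was 24.6 times that of the next P450 gene in ILN/ILN and 22.7 times in wild type. The ratio of fragments was 0.971 (0.965 to 0.977), so the levels nearly coincided. Hepatocyte markers were read beside it, since Cyp2e1 is known as a liver enzyme. Of 8 hepatocyte markers only 3 were measured, Alb had a value of 37.3 in ILN/ILN and 36.4 in wild type, Ttr and Cps1 had 0 fragments in both libraries, and Fgb had 0 in ILN/ILN and 35 in wild type.

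**Figure D1:**
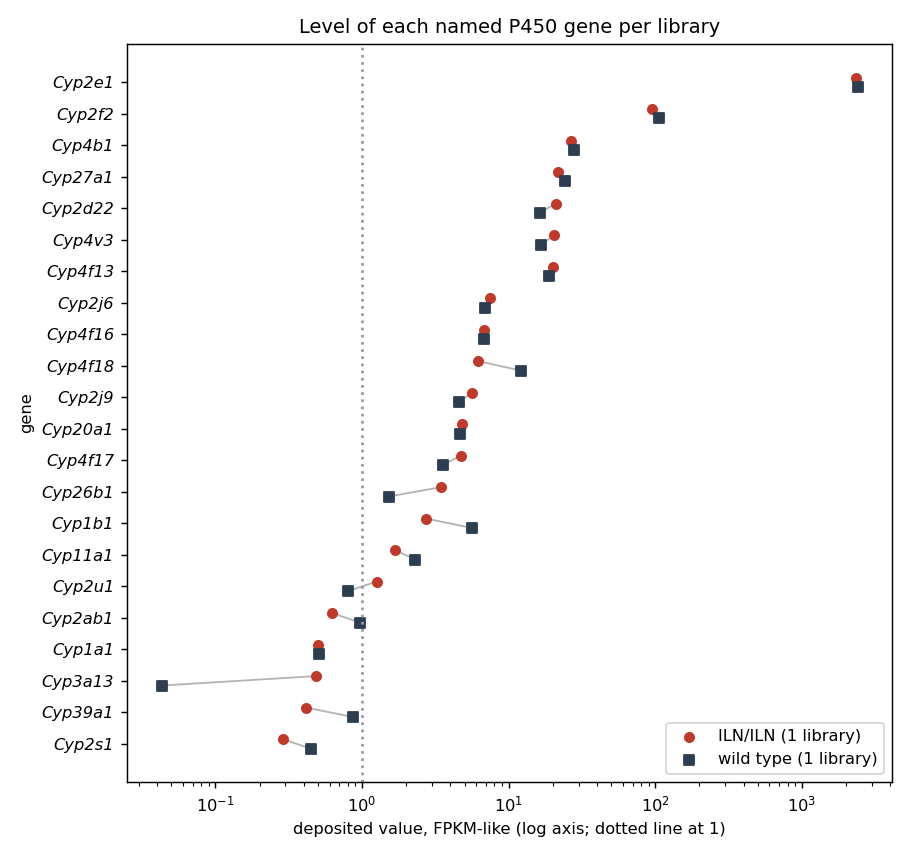
Deposited FPKM-like value (log axis, dotted line at 1) of the 22 P450 genes that are measured or had at least 50 fragments in either library, with circles for the ILN/ILN library and squares for the wild-type library below them. Cyp2e1 lies at 2332 in ILN/ILN and 2401 in wild type, and the widest gap is at Cyp3a13, with 0.484 in ILN/ILN and 0.043 in wild type.

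None of the 17 measured genes was at least 2-fold higher in ILN/ILN on the log2(value + 1) scale, where 0.407% of all 11556 measured genes were, and none was at least 2-fold lower, where 1.72% were. With shares so low among all genes, 0 of 17 says little about the P450 genes. At 1.5-fold, 1 was higher (Cyp26b1, 5.88% of the 17) beside 1.90% of all genes and 2 were lower (Cyp1b1 and Cyp4f18, 11.8%) beside 5.39%. Within 1.5-fold lay 14 of 17 P450 genes (82.4%), against 92.7% of all measured genes. On fragments without a pseudocount, among the 28 P450 genes with at least 20 fragments in both libraries together, 2 reached 2-fold on the higher side (7.14%), against 1.65% of 14101 genes, and 2 on the lower side (7.14%), against 6.28%. The share on the lower side was near that of all genes, and the share on the higher side rests on Cyp3a13 and Cyp26b1. Of the 17 measured genes 10 had a log2 ratio above 0 and 7 below, with a median of 0.03, against 0.02 over all measured genes. The 7 genes that reached a value of 10 in both libraries lay between -0.15 and 0.35 in log2 ratio. All P450 rows together took 0.462% of fragments in ILN/ILN and 0.476% in wild type.

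**Figure D2:**
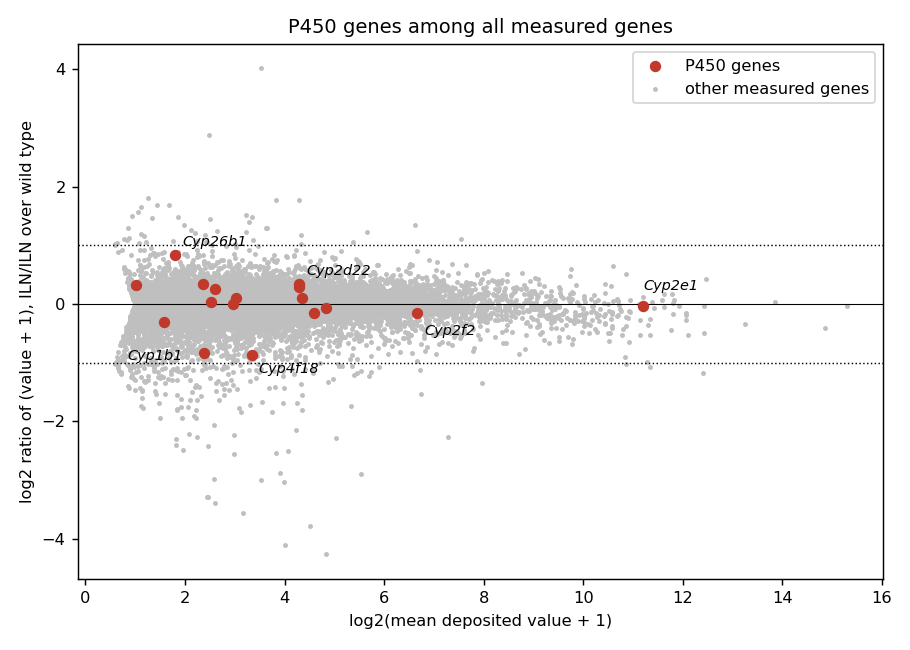
Log2 ratio of ILN/ILN over wild type, each value plus 1, against log2 of the mean value + 1 for 11556 measured genes, with the 17 measured P450 genes in red and dotted lines at 2-fold. All red points lie between the lines, from -0.87 for Cyp4f18 to 0.83 for Cyp26b1.

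Ranks 2 and 3 among the P450 genes were held by enzymes for foreign compounds and fatty acids, and rank 4 in both libraries by the sterol enzyme Cyp27a1, described with its family. Cyp2f2, known in mice for activating naphthalene in the airway, had a value of 94.99 in ILN/ILN and 105.7 in wild type. Its ratio of 0.899 (0.872 to 0.927) was close to 1, as was that of Cyp4b1, a fatty acid and foreign compound hydroxylase, which had a value of 26.8 in ILN/ILN and 28.01 in wild type (0.955; 0.900 to 1.01). Cyp2d22, a mouse member of the drug-metabolising Cyp2d group, was at 20.9 in ILN/ILN and 16.2 in wild type, from 2432 fragments in ILN/ILN and 2030 in wild type (1.29; 1.21 to 1.37). Cyp4v3, the mouse counterpart of the human fatty acid hydroxylase CYP4V2, was at 20.5 in ILN/ILN and 16.7 in wild type (1.23; 1.16 to 1.30). These last 2 genes were thus slightly higher in ILN/ILN, by more than counting error and by less than 1.5-fold.

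The arachidonic acid epoxygenase group Cyp2j was present through Cyp2j6, at 7.48 in ILN/ILN and 6.87 in wild type, and Cyp2j9, at 5.63 in ILN/ILN and 4.57 in wild type. The ratio was 1.09 (1.003 to 1.18) for Cyp2j6 and 1.23 (1.08 to 1.41) for Cyp2j9. Cyp2u1, a fatty acid hydroxylase, had 128 fragments in ILN/ILN and 88 in wild type, a ratio of 1.56 (1.18 to 2.07). All 3 lay on the higher side in ILN/ILN. Cyp2ab1 had 75 fragments in ILN/ILN and 125 in wild type (0.644; 0.477 to 0.865), and Cyp2s1, a P450 of epithelia, had 33 in ILN/ILN and 55 in wild type (0.644; 0.405 to 1.01). Both lay on the lower side, and of these intervals that of Cyp2s1 held 1. The luminal epithelial markers given above were lower in the same library, and their part in the Cyp2s1 difference was not tested. Cyp2b10, the classic target of the receptor Nr1i3 in mouse liver, had 21 fragments in ILN/ILN and 33 in wild type (0.683; 0.376 to 1.22).

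The leukotriene and fatty acid omega-hydroxylase group Cyp4f held 9 rows, of which 4 were measured. Cyp4f18, which inactivates the neutrophil attractant leukotriene B4 in mouse leukocytes, had a value of 6.16 in ILN/ILN and 12.1 in wild type, from 453 fragments in ILN/ILN and 953 in wild type. It was 1.96-fold lower in ILN/ILN (1.75 to 2.20), with the lowest log2 ratio among the 17 measured P450 genes (-0.87). Neutrophil markers were lower beside it, with a summed value over 6 rows of 66.8 in ILN/ILN and 321.5 in wild type and S100a9 at 52.8 in ILN/ILN and 259 in wild type. B cell markers were lower too, with a summed value over 8 rows of 35.5 in ILN/ILN and 193 in wild type, as were macrophage markers, with 1291 in ILN/ILN and 2016 in wild type over 9 rows. Their part in the Cyp4f18 difference was not tested, and in whole tissue fewer cells of a type and less RNA per cell cannot be told apart. No row of the neutrophil, B cell or macrophage lists had 0 fragments in either library.

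The other measured Cyp4f genes had ratios nearer to 1. Cyp4f13 was at 20.1 in ILN/ILN and 18.7 in wild type (1.07; 0.999 to 1.15), and Cyp4f16 at 6.77 in ILN/ILN and 6.75 in wild type (1.002; 0.889 to 1.13). Cyp4f17 was at 4.73 in ILN/ILN and 3.54 in wild type, from 340 fragments in ILN/ILN and 274 in wild type (1.33; 1.13 to 1.57). The 4 genes thus ran from 1.96-fold lower to 1.33-fold higher in ILN/ILN within a single subfamily, and the summed value of all 9 rows was 38.0 in ILN/ILN and 41.4 in wild type.

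**Figure D3:**
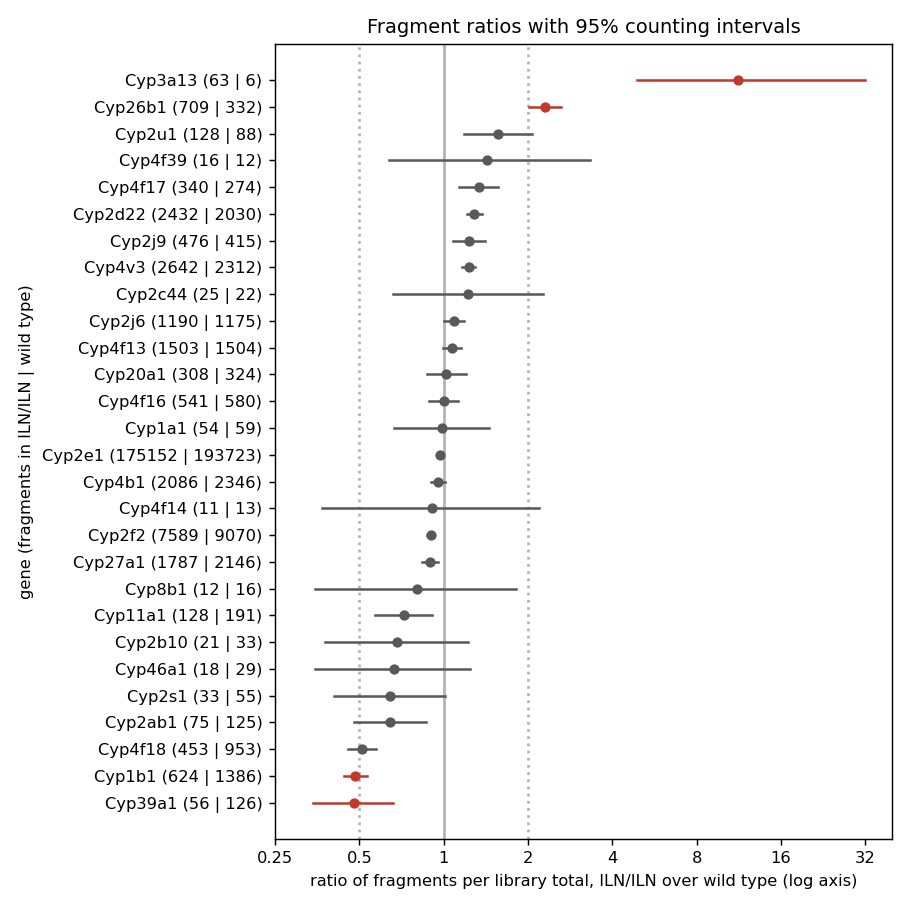
Ratio of fragments per library total, ILN/ILN over wild type (log axis), of the 28 P450 genes with at least 20 fragments in both libraries together, with exact 95% counting intervals and the fragments of ILN/ILN and wild type beside each name. Genes past 2-fold are red: Cyp3a13 and Cyp26b1 on the higher side and Cyp1b1 and Cyp39a1 on the lower side.

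Cyp26 enzymes clear retinoic acid, the hormone-like derivative of vitamin A. Cyp26b1 had a value of 3.48 in ILN/ILN and 1.52 in wild type, from 709 fragments in ILN/ILN and 332 in wild type, and was 2.29-fold higher in ILN/ILN (2.01 to 2.62). Its log2 ratio of 0.83 was the highest among measured P450 genes. Cyp26a1 and Cyp26c1 had 0 fragments in both libraries, so in this gland the family was represented by Cyp26b1. Of 10 measured genes of the retinoid pathway, 8 had a log2 ratio above 0 and 2 below, none differed by 2-fold, and the median was 0.14, against 0.02 over all 11556 measured genes. The retinoic acid receptor gene Rarg was at 28.3 in ILN/ILN and 20.7 in wild type, the retinaldehyde dehydrogenase gene Aldh1a3 at 15.04 in ILN/ILN and 11.4 in wild type, and the receptor gene Rara at 5.84 in ILN/ILN and 8.64 in wild type. Aldh1a2, another retinaldehyde dehydrogenase gene, was at 4.44 in ILN/ILN and 3.41 in wild type. The retinoid genes named here thus went both ways.

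Cyp1 enzymes are the classic targets of the aryl hydrocarbon receptor Ahr. Cyp1b1, which hydroxylates oestradiol and activates polycyclic hydrocarbons, had a value of 2.73 in ILN/ILN and 5.65 in wild type, from 624 fragments in ILN/ILN and 1386 in wild type, and was 2.07-fold lower in ILN/ILN (1.88 to 2.28). Cyp1a1, the most responsive target, had 54 fragments in ILN/ILN and 59 in wild type (0.983; 0.667 to 1.45). The intervals of the 2 genes do not overlap, and that of Cyp1a1 is wide. Cyp1b1 is known from stroma, and of 7 fibroblast markers 4 were higher in ILN/ILN and 3 lower, with a summed value of 3660 in ILN/ILN and 3624 in wild type. The sum rests mainly on matrix genes such as Col3a1, so it says little about fibroblast markers with lower values. The part of the fibroblast and macrophage markers in the Cyp1b1 difference was not tested.

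Of 8 Ahr target genes, Cyp1a1 and Cyp1b1 among them, 5 were measured, 3 with a log2 ratio above 0 and 2 below, and the median was 0.20. Aldh3a1, an aldehyde dehydrogenase, had 1396 fragments in ILN/ILN and 25 in wild type (60.0; 40.5 to 93.0), and it was the only one of them past 2-fold on the log2(value + 1) scale. On that scale 0.407% of all 11556 measured genes were at least 2-fold higher. Nqo1, a quinone reductase, was at 2.10 in ILN/ILN and 2.48 in wild type, Tiparp, a feedback inhibitor of Ahr, at 2.27 in ILN/ILN and 1.84 in wild type, and Ugt1a6a, a glucuronosyltransferase, at 16.97 in ILN/ILN and 13.7 in wild type. These 3 had ratios between 0.845 and 1.24. Ahr itself was at 1.20 in ILN/ILN and 1.24 in wild type (0.965; 0.822 to 1.13).

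Promoter sequences are shown for the Cyp1 and Cyp26 pairs, since each pairs a gene with a difference and a relative without one or without fragments. They run from 250 bases before to 50 after the start (RefSeq, GRCm38.p6), and capitals mark 3 motifs: GCGTG on either strand, the core to which Ahr and its partner Arnt bind, TATAAA on the gene's strand, and the DR5 type of retinoic acid response element on either strand. Cyp1a1 lies at chr9:57697363-57697662 (plus strand), Cyp1b1 at chr17:79715012-79715311 (minus strand), Cyp26a1 at chr19:37697558-37697857 (plus strand) and Cyp26b1 at chr6:84593761-84594060 (minus strand).
Cyp1a1: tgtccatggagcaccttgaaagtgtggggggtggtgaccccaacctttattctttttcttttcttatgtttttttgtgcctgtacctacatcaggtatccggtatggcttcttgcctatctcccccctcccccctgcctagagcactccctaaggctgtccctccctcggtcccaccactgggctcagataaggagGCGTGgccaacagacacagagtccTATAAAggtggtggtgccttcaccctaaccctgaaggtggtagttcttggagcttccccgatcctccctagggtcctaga
Cyp1b1: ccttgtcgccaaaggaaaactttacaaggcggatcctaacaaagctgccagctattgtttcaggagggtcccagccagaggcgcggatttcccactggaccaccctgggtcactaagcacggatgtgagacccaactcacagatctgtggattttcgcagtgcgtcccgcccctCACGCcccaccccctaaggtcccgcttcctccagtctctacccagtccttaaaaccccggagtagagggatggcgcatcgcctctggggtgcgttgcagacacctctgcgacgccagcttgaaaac
Cyp26a1: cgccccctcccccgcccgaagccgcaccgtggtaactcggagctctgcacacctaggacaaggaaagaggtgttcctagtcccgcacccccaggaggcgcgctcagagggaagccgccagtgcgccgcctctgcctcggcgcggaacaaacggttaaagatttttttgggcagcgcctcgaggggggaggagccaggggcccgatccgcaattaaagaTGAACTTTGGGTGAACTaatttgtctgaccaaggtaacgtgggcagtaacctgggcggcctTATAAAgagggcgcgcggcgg
Cyp26b1: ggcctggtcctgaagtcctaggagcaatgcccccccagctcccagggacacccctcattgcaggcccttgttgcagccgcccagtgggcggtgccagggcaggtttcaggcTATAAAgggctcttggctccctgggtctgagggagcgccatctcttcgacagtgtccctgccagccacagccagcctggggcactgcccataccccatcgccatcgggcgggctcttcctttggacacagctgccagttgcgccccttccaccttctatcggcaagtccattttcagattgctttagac
Cyp1a1 and Cyp1b1 each held GCGTG 1 time, and 17 of 85 promoters of 75 P450 genes in the table held it (20%), against 32.4% of all 32851 promoters. TATAAA occurred in Cyp1a1, Cyp26a1 and Cyp26b1, in 26 of the 85 P450 promoters (30.6%) and in 8.32% of all promoters. Its place differed between these 3 genes, from well before the start in Cyp26b1 to after the start in Cyp26a1. The DR5 element occurred in Cyp26a1 alone among the 85, and in 32 of all promoters (0.0974%). A match says that the letters are there, and no binding was measured.

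Cyp3a13, a mouse member of the drug-metabolising Cyp3a group, had 63 fragments in ILN/ILN and 6 in wild type, a ratio of 11.3 (4.90 to 31.9), with values of only 0.484 in ILN/ILN and 0.043 in wild type. It was the widest difference among P450 genes with at least 20 fragments. Cyp3a57 went the other way, with 0 fragments in ILN/ILN and 19 in wild type (interval of the ratio 0 to 0.230). Nr1i2 and Nr1i3, the nuclear receptors known for inducing Cyp3a and Cyp2b genes in liver, had 0 fragments in both libraries, and were named after their values were seen.

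Cyp27a1, the mitochondrial sterol hydroxylase, was the main sterol P450 by level, at 21.8 in ILN/ILN and 24.3 in wild type, from 1787 fragments in ILN/ILN and 2146 in wild type (0.894; 0.839 to 0.953). Cyp39a1, an oxysterol hydroxylase of bile acid synthesis, had 56 fragments in ILN/ILN and 126 in wild type and was 2.10-fold lower in ILN/ILN (1.52 to 2.92), at values of 0.416 in ILN/ILN and 0.871 in wild type. Cyp7b1, an oxysterol hydroxylase, had 4 fragments in ILN/ILN and 14 in wild type, Cyp46a1, the cholesterol hydroxylase of brain, had 18 in ILN/ILN and 29 in wild type, and Cyp8b1, of bile acid synthesis, had 12 in ILN/ILN and 16 in wild type. The fragment ratios of these genes lay below 1, with intervals that held 1 for Cyp46a1 and Cyp8b1 and reached 0.977 for Cyp7b1. Cyp7b1, Cyp46a1 and Cyp8b1 had under 50 fragments in each library and were named after their values were seen. Their shared direction is therefore not a result about sterol P450 genes as a group. Of 11 measured oxysterol partner genes none was past 2-fold, 6 were above 0 and 5 below. Their widest differences were in Srebf2, a regulator of cholesterol synthesis, at 10.3 in ILN/ILN and 14.2 in wild type, and Gpr183, an oxysterol receptor of lymphocytes, at 1.08 in ILN/ILN and 1.70 in wild type.

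Of the enzymes that make steroid hormones, Cyp11a1, which cuts the cholesterol side chain in mitochondria, was the only P450 measured. It had a value of 1.67 in ILN/ILN and 2.31 in wild type, from 128 fragments in ILN/ILN and 191 in wild type, and was 1.39-fold lower in ILN/ILN (1.11 to 1.75). The steroid hydroxylases that act after it were near the limit, with Cyp17a1 at 3 fragments in ILN/ILN and 8 in wild type and Cyp21a1 at 1 in ILN/ILN and 6 in wild type. Markers of steroid-making cells were low or at 0 beside them, with Hsd3b1 at 0 in both libraries, Nr5a1 at 0 fragments in ILN/ILN and 1 in wild type, and Star at 52 in ILN/ILN and 28 in wild type. Among 14 measured steroid enzymes, matched by symbol, outside the P450 family, 1 reached 2-fold on the higher side and 1 on the lower side. Of all 11556 measured genes 0.407% were that much higher and 1.72% that much lower. The median log2 ratio of the steroid enzymes was -0.04. Akr1c18, which inactivates progesterone, was at 14.0 in ILN/ILN and 4.37 in wild type, and Hsd11b2, which inactivates corticosterone, had 24 fragments in ILN/ILN and 164 in wild type (6.36-fold lower; 4.13 to 10.2). Srd5a1, a steroid reductase, was 1.71-fold higher (1.46 to 2.01), and Sts, the steroid sulfatase, 1.57-fold lower (1.38 to 1.81). Hsd11b1, which makes active corticosterone, was at 140.1 in ILN/ILN and 188 in wild type. Cyp20a1, a P450 whose substrate is not known, was at 4.78 in ILN/ILN and 4.68 in wild type (1.02; 0.871 to 1.20).

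The partners that supply P450 enzymes with electrons were read next. Among 9 genes of the electron donor list matched by symbol, all measured, 7 had a log2 ratio above 0 and 2 below. None differed by 2-fold, and the median was 0.13. The list also counts Pgrmc1 and Pgrmc2, which are not electron carriers, and each was above 0. Cytochrome b5 of the endoplasmic reticulum, which passes electrons to some P450 enzymes, is in the files under its older symbol Cyb5 and was matched by gene ID after the values were seen. Its level was 1000.03 in ILN/ILN and 1116 in wild type (0.896; 0.882 to 0.910), above that of every other donor. With Cyb5, 7 of 10 genes of the list were above 0 and 3 below, with a median of 0.08. Por, the reductase that serves the microsomal P450 enzymes, was at 367 in ILN/ILN and 315 in wild type (1.17; 1.15 to 1.19), and Cyb5r3, a cytochrome b5 reductase, at 167 in ILN/ILN and 150 in wild type. Fdx1, the ferredoxin of the mitochondrial P450 enzymes, was at 32.2 in ILN/ILN and 46.2 in wild type (1.44-fold lower; 1.33 to 1.55), and its reductase Fdxr was at 5.11 in ILN/ILN and 5.46 in wild type (0.936; 0.819 to 1.07). The related ferredoxin gene Fdx1l was at 31.1 in ILN/ILN and 30.7 in wild type. Cyb5b, an outer mitochondrial cytochrome b5, was at 62.3 in ILN/ILN and 55.96 in wild type, and Cyb5r1 at 11.3 in ILN/ILN and 10.2 in wild type. The haem-binding protein Pgrmc1 was at 48.99 in ILN/ILN and 47.99 in wild type, and Pgrmc2 at 52.9 in ILN/ILN and 37.9 in wild type.

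Of 12 genes of haem synthesis and breakdown none was past 2-fold, 6 were above 0 and 6 below, with a median of 0.01. Hmox1, the haem oxygenase induced by stress, had the widest difference, at 67.1 in ILN/ILN and 89.4 in wild type (1.33-fold lower; 1.28 to 1.38), while Fech, which puts iron into haem, was at 58.3 in ILN/ILN and 50.9 in wild type. Of 11 measured receptors and partners that control P450 genes none was past 2-fold on the log2(value + 1) scale, with a median of 0.02. Arnt2, an Ahr partner of the nervous system, had 275 fragments in ILN/ILN and 29 in wild type (10.2; 6.93 to 15.5) at values of 1.03 in ILN/ILN and 0.101 in wild type, and Ppara, the receptor known for inducing Cyp4a genes in liver, was at 10.6 in ILN/ILN and 7.26 in wild type. The sterol receptor gene Nr1h3 was at 107 in ILN/ILN and 102 in wild type, and Nr1h2 at 38.6 in ILN/ILN and 39.1 in wild type. Rxra, the common partner of these receptors, was at 43.3 in ILN/ILN and 42.7 in wild type. Arnt, Rxrb, Rxrg and Nfe2l2 had log2 ratios between -0.15 and 0.07, and the Arnt values came from different estimates in the 2 libraries.

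P450 enzymes also act on arachidonic acid, beside cyclooxygenases and lipoxygenases. Of 15 measured eicosanoid enzymes 10 had a log2 ratio below 0 and 5 above, with a median of -0.20. In this list 1 gene was at least 2-fold lower, beside 1.72% of all 11556 measured genes. Ptgis and Tbxas1 on this list are P450 enzymes too, but their symbols fall outside the rule used here. They were named after the values were seen. Alox15, a lipoxygenase of macrophages and eosinophils, had 42 fragments in ILN/ILN and 328 in wild type (7.27-fold lower; 5.26 to 10.3), beside the macrophage markers that were lower in the same library, whose part in it was not tested. Ephx2, the epoxide hydrolase that acts on P450 products of arachidonic acid, was the most abundant gene of the list, at 513 in ILN/ILN and 355 in wild type (1.44; 1.42 to 1.46). Ptgs1, the constitutive cyclooxygenase, was at 4.92 in ILN/ILN and 7.82 in wild type, and Alox5, the entry enzyme of leukotriene synthesis, at 6.11 in ILN/ILN and 8.78 in wild type. Alox5ap, which presents arachidonic acid to Alox5, was at 50.001 in ILN/ILN and 62.5 in wild type. The list of epoxide hydrolases and conjugation enzymes also holds flavin monooxygenases, aldehyde oxidases and carboxylesterases. Of its 15 measured genes none was past 2-fold on the log2(value + 1) scale, 12 were above 0 and 3 below. The median was 0.25, and the 3 below 0 were flavin monooxygenases or aldehyde oxidases. Aox3, an aldehyde oxidase known from mouse liver, had 13 fragments in ILN/ILN and 230 in wild type (16.5-fold lower; 9.44 to 31.4), while its relative Aox1 was at 24.9 in ILN/ILN and 18.7 in wild type. Fmo1, a flavin monooxygenase, was at 73.6 in ILN/ILN and 104 in wild type, and Ugt1a7c, a glucuronosyltransferase, at 3.93 in ILN/ILN and 2.76 in wild type.

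**Figure D4:**
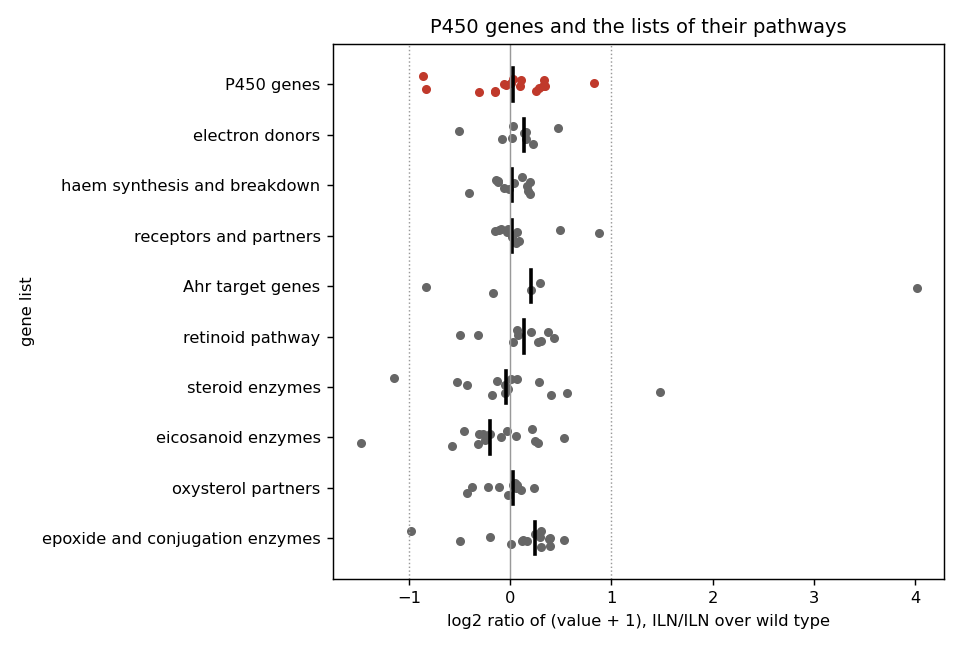
Log2 ratio of ILN/ILN over wild type, each value plus 1, for the measured P450 genes (red, top) and for 9 lists of pathway genes (grey), with a black bar at each median and dotted lines at 2-fold. The grey Ahr list also holds Cyp1b1, and the grey eicosanoid list holds the P450 enzymes Ptgis and Tbxas1. The epoxide and conjugation list also holds flavin monooxygenases, aldehyde oxidases and carboxylesterases. List medians run from -0.20 for eicosanoid enzymes to 0.25 for the epoxide and conjugation list, and the point near 4 is Aldh3a1.

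Many mouse P450 genes arose by recent duplication, so reads can match more than 1 of them. Of 97 rows with a GENCODE transcript, 71 shared at least 1 window of 50 bases with another gene and 39 shared at least 10% of their windows. Cyp3a41a shared 98.6% of its windows, mainly with Cyp3a41b, and its deposited length was 94 bases, or 4.56% of the longest transcript. Cyp3a41b shared 93.5%, and its deposited length was 181 bases, or 8.77%. The median deposited length was 75.9% of the longest transcript in the rows that shared at least 10% and 94.6% in the rest. Other close pairs by shared windows were Cyp4a12a with Cyp4a12b, Cyp2a4 with Cyp2a5, Cyp2c40 with Cyp2c69 and Cyp2d10 with Cyp2d11, and these 8 genes had at most 2 fragments in either library. A row at 0 in such a pair can hold uncertain counts, since the sources used here do not give how reads with several matches were treated.

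Among the 22 P450 genes that are measured or had at least 50 fragments, 2 shared at least 10% of windows. These were Cyp4f16, with 26.5%, mainly with Cyp4f37, and Cyp4b1, with 10.3%, mainly with the pseudogene Cyp4b1-ps2. Cyp2e1 shared 4.76%, mainly with Fcho2, Cyp2d22 4.99% and Cyp4f18 0.423%. Some named genes also overlap other genes in exons, so that their counts are uncertain where strand was not used. Cyp4f18 overlaps Zfp961 on the opposite strand over 9.76% of its exon bases, Cyp2f2 overlaps Gm15883 over 13.5% and Cyp2u1 overlaps 4930534D22Rik over 10.5%, both on the opposite strand. Cyp4v3 overlaps Gm45753 on its own strand over 8.22%. The value of Cyp2c44, at 0.429 in ILN/ILN and 0.790 in wild type, came from different estimates in the 2 libraries, and its fragments, 25 in ILN/ILN and 22 in wild type, gave a ratio of 1.22 (0.660 to 2.27) in the opposite direction.

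**Figure D5:**
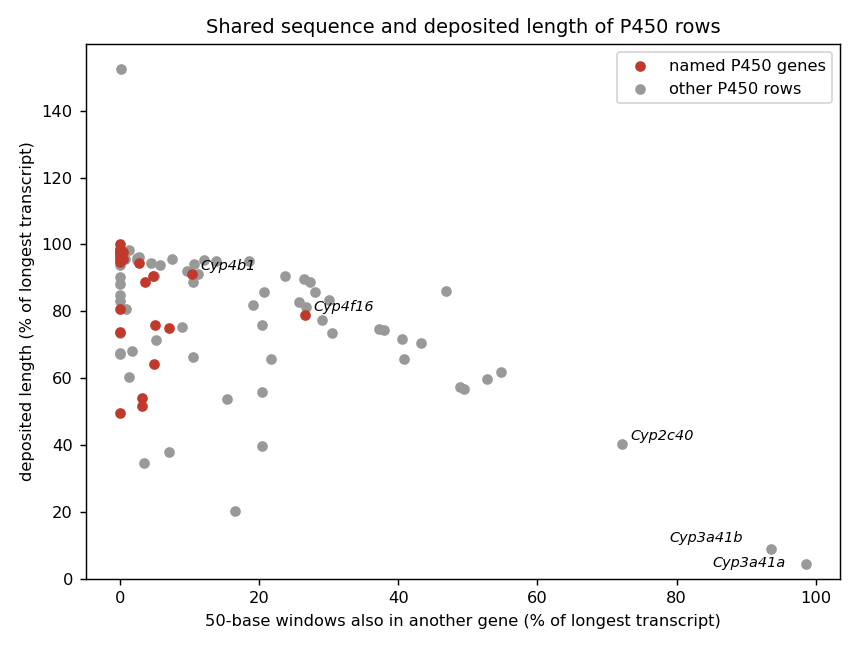
Deposited length as a percent of the longest GENCODE transcript against the percent of 50-base windows of that transcript that occur in another gene, for 97 P450 rows, with the 22 named genes in red. Cyp3a41a and Cyp3a41b sit at the lower right with 98.6% and 93.5% shared, while Cyp4f16 is the red point farthest right with 26.5%.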

How the data were processed

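Total RNA of 1 ILN/ILN and 1 wild-type mammary gland sample was selected for polyadenylation, fragmented, copied with dUTP in the second strand and sequenced, per the labels' protocols. TopHat 1.4.1, Bowtie 0.12.3, bedtools and build mm9 were used, per the submitters' processing notes, which state no role. The sources used here do not give the program behind the gene tables, its annotation, strand setting or filters.

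Per the file headers the authors deposited an FPKM-like value, its log2(value + 1), and a signal per kilobase as an original, a derived and a final estimate. In the deposited files the original signal times the deposited length was whole, within 0.01, in 100% of genes above 0, and this is the fragment number. Final values take the larger estimate, which can differ between libraries.

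Computed here were log2 ratios with a pseudocount of 1, a minimum value of 1 in either library, and exact (Clopper-Pearson) intervals with SciPy 1.17.1 and pandas 2.3.3, tested on simulated data. A fold of at least 2 counted as a call. The members and lists were chosen with earlier results of these data known. Members with a value of at least 1 or at least 50 fragments in either library could be named, with all measured genes of the electron donor, receptor and Ahr lists and the 5 widest of each other pathway list. Some genes of these lists are not reported here by name. Cell type markers could be named where they were among the highest of their list in wild type or had 0 fragments in a library. Cldn4 was named as the luminal marker with the fewest fragments above 0 in ILN/ILN. Sequences came from RefSeq (GRCm38.p6) and GENCODE M21, a build other than that of the files, so the gene values carry no coordinates. Alternatives covered pseudocount, scaling, minimum, threshold and fragments.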

Additional observations from a re-analysis of the deposited data

How the results depend on the processing

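With 1 library per genotype, counting error is the only error shown, and genes under about 50 fragments have wide intervals. The count of measured P450 genes at least 2-fold higher and lower in ILN/ILN, 0 and 0, became 1 and 1 with a pseudocount of 0.1, and 1 and 2 at a 1.5-fold threshold. Over another set, the 28 P450 genes with at least 20 fragments in both libraries together, the counts on fragments were 2 and 2, and Cyp3a13 and Cyp39a1 among these 4 are not measured genes. A pseudocount of 5, fragments in place of deposited values, scaling by the median ratio or upper quartile, a minimum of 5 and no minimum left both counts at 0. The P450 median log2 ratio, 0.03, lay between -0.03 and 0.03 under the alternatives, and was below 0 with upper quartile scaling, a minimum of 5 and no minimum.

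With a pseudocount of 0.1, the lists of receptors (higher) and Ahr targets (lower) each had 1 gene past 2-fold in place of 0. So did the epoxide and conjugation list (lower), there also from fragments. With a pseudocount of 5, or a minimum of 5, the steroid and eicosanoid lists had 0 lower genes in place of 1. The median of receptors, 0.02, became -0.046 with upper quartile scaling, that of Ahr targets, 0.20, became -0.0077 with no minimum, and that of eicosanoid enzymes, -0.20, became -0.0797 with a pseudocount of 5. The causes were not tested. Matching list names also by gene ID, an alternative chosen after seeing the data, added 1 gene each to the electron donors and steroid enzymes (median 0.08 and -0.05) and left their counts past 2-fold the same. Of the 22 named P450 genes, Cyp4f16 changed sign with median ratio scaling (-0.02), and Cyp4f16 and Cyp20a1 with upper quartile scaling (-0.05 and -0.02). No paired analysis was possible because each genotype has 1 library.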
